A study of Sus scrofa with 2 samples.

Results

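ACTA2, TAGLN, MYH11, CNN1, MYL9, DES, RGS5, PDGFRB and NOTCH3 are genes of the contractile apparatus and of the pericyte programme of the vessel wall. The 9 genes were chosen by name and looked up by symbol among the 31908 features that both libraries list, of which 22857 had at least 1 UMI (unique molecular identifier, 1 counted transcript) in the filtered cells. All 9 were listed and all 9 were detected. The cells came from the dorsal skin of male farm pigs, dissociated with the Miltenyi whole-skin kit, and were profiled by droplet scRNA-seq with the 10x Genomics 3′ v3 kit. One library was made from fresh cells (treatment none), and the other from cells frozen in 90% FBS + 10% DMSO and thawed (treatment frozen). Dead cells were removed by FACS, where a light scatter gate also took out doublets before loading. The protocol text given for both samples describes freezing, whereas the title and the treatment label mark one sample as fresh, and the sources used here leave unsaid if they are from one and the same animal. As each condition has 1 library, there is no spread between samples, so no test was run, and the 95% intervals given below cover counting error only.

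Mural cells wrap the endothelial tube. Vascular smooth muscle cells surround arterioles and contract through smooth muscle actin and myosin, while pericytes sit on capillaries within the basement membrane and receive PDGF and Notch signals from the endothelium. In skin, several contractile genes are also known from activated fibroblasts, arrector pili muscle and myoepithelial cells, so that their use as mural markers depends on how little the neighbouring lineages express them.

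The filtered data held 2775 fresh and 4223 cryopreserved cells with medians of 11017 and 7945 UMIs. Cells were grouped into 24 clusters with the 9 genes left out of the features, and the clusters were named from other markers, which gave 10 classes. Mural-like cells numbered 247 and 373, or 8.90% and 8.83% of the cells. They fell into cluster 8, in which 9 smooth muscle and 8 pericyte naming markers were raised and which was led by genes such as MYOCD and ACTG2, and cluster 12, led by genes such as HIGD1B and KCNJ8 with 7 markers of either kind. Cluster 8 held 150 and 198 cells and cluster 12 held 97 and 175. Of all barcodes, 6 occurred in both libraries.

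The genes lie on chromosomes 2 (CNN1, PDGFRB and NOTCH3), 3 (MYH11), 4 (RGS5), 9 (TAGLN), 14 (ACTA2), 15 (DES) and 17 (MYL9) of Sscrofa11.1. Serum response factor is known to drive smooth muscle genes through the CArG box, so the 250 bases before the annotated RefSeq start of the gene are shown for ACTA2, which codes for smooth muscle actin, for the gene of the list with the fewest UMIs (MYL9) and for RGS5, a pericyte marker. Each promoter is written 5′ to 3′ on the strand of its gene, with capitals marking a CArG box or, in ACTA2, a CArG-like box with 1 G or C among its inner bases.
ACTA2, chr14:100886733-100886982, minus strand: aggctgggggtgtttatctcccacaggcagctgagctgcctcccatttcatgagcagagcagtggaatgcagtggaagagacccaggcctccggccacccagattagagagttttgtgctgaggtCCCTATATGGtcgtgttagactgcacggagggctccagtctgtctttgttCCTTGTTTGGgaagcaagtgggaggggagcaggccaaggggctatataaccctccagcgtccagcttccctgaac
MYL9, chr17:39787915-39788164, plus strand: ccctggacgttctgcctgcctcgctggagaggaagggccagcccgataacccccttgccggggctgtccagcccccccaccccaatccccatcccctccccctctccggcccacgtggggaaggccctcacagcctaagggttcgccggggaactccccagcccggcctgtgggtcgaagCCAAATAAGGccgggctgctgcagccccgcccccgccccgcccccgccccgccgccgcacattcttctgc
RGS5, chr4:87286703-87286952, plus strand: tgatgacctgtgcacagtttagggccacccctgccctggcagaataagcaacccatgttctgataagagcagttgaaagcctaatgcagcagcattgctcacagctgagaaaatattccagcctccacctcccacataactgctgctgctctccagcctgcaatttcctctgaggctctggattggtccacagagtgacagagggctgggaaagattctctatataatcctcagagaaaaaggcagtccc
MYL9 carried the CArG box CCAAATAAGG, which begins 70 bases before the start. ACTA2 carried the CArG-like boxes CCCTATATGG and CCTTGTTTGG at 125 and 75 bases. Each kind of box was thus found in 1 of the 8 genes searched, and MYH11, CNN1, DES, RGS5, PDGFRB and NOTCH3 had neither in this window. A CArG box was found in 257 of 19556 promoters (1.31%) and a CArG-like box in 1118 (5.72%). TGGGAA, the core of the motif of the Notch factor RBPJ, searched on both strands, was found in ACTA2 and RGS5 among the 8 genes searched and in 24.6% of all promoters. These matches describe the letters in this window.

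Contractile genes were concentrated in mural-like cells. ACTA2, smooth muscle alpha-actin, was counted 5784 times in fresh and 4847 times in cryopreserved mural-like cells, a level of 2989 CPM (UMIs per 1000000 UMIs of the class, with a 95% interval of 2912 to 3067) and 2496 CPM (2426 to 2567). It was detected in 89.5% and 89.3% of these cells. In fibroblast-like cells, which number 1196 and 1555, ACTA2 stood at 5.02 and 13.3 CPM, and 3.18% and 4.12% of the cells had a UMI. T or NK-like cells, which should lack the gene, had a UMI in 1.38% and 1.18%, at median depths of 6512 and 4813 UMIs against 7689 and 5029 in mural-like and 12660 and 9967 in fibroblast-like cells. After thinning every cell to 1000 UMIs, which left out 3 and 1 mural-like cells, ACTA2 was found in 73.8% and 71.5% of mural-like cells. The thinned share was 0.25% and 0.97% in fibroblast-like against 0.69% and 0.39% in T or NK-like cells. The T or NK-like cells had 2 and 3 ACTA2 UMIs before thinning, too few to set a background level. 

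TAGLN encodes transgelin, an actin-bundling protein of smooth muscle. Its level was 3118 and 3352 CPM in mural-like cells, with a UMI in 97.6% and 96.5% of them. In fibroblast-like cells it was 16.8 and 31.2 CPM, and 9.11% and 12.5% of cells had a UMI. The share in T or NK-like cells was 2.07% and 1.18%, below the fibroblast-like share in both libraries, and after thinning it was 0.69% and 0 against 2.02% and 2.71%.

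MYH11 encodes the smooth muscle myosin heavy chain and CNN1 encodes calponin, which binds actin and slows the myosin ATPase. The level of MYH11 in mural-like cells was 1424 and 1333 CPM, with a UMI in 87.9% and 85.8% of cells. CNN1 stood at 208 and 246 CPM and was detected in 49.4% and 37.3% of them. After thinning, the detected shares were 61.9% and 56.2% for MYH11 and 16.8% and 15.9% for CNN1. The fibroblast-like levels were 3.86 and 4.73 CPM for MYH11 and 0.32 and 1.04 CPM for CNN1, the latter resting on 5 and 17 UMIs.

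DES and MYL9 were sparse. DES encodes desmin, the intermediate filament of muscle, and had 21 and 54 UMIs in mural-like cells (10.9 and 27.8 CPM), found in 6.48% and 8.31% of them. Outside these cells, DES had 0 UMIs in the fresh library, and 1 UMI in fibroblast-like and 1 in lymphatic-like cells of the cryopreserved library. The regulatory myosin light chain MYL9 had 24 UMIs in all filtered cells, 5 and 11 of them in mural-like cells (2.58 and 5.66 CPM). At so few counts neither its order among the classes nor any difference between the libraries can be read. Reads of this kit come from the 3′ end of a transcript, and whether the annotation used for counting covers that end of MYL9 was not checked, so the low count may not be a low level.

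RGS5 encodes a regulator of G protein signalling that is widely used as a pericyte marker. Its level in mural-like cells was 2899 CPM (2824 to 2976) in fresh and 2890 (2815 to 2967) in cryopreserved cells, and 91.1% and 90.1% of the cells had a UMI. Fibroblast-like cells stood at 2.70 and 3.93 CPM, with 2.01% and 1.93% of cells positive. The T or NK-like share was 1.38% and 0.39%, and after thinning 0.69% and 0 against 0.25% and 0.45% in fibroblast-like cells. Of the 26 RGS5 UMIs in fresh T or NK-like cells, 25 came from 1 cell. A single cell likewise held 43 of 43 RGS5 UMIs in cryopreserved differentiated keratinocyte-like cells.

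PDGFRB, the receptor for PDGF-B that recruits pericytes to vessels, was the member most shared with fibroblasts. Its level was 559 and 717 CPM in mural-like and 257 and 283 CPM in fibroblast-like cells, and a UMI was found in 91.1% and 90.6% of the former and 85.4% and 85.0% of the latter. At 1000 UMIs per cell, these shares were 43.9% and 55.6% against 23.9% and 25.3%. Fibroblast-like cells, which were more numerous, held 77.5% and 75.2% of all PDGFRB UMIs, and mural-like cells 21.0% and 22.8%.

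NOTCH3, the Notch receptor of vascular smooth muscle, was spread over mural-like cells, the epidermis and fibroblast-like cells. It stood at 342 and 373 CPM in mural-like cells, 84.7 and 175 CPM in differentiated keratinocyte-like cells, 45.8 and 67.2 CPM in epidermal stem-like cells and 30.3 and 28.6 CPM in fibroblast-like cells. Endothelial-like cells had 0 NOTCH3 UMIs in either library, which allows a level of up to 1.91 and 2.41 CPM. Mural-like cells held 42.6% and 34.1% of all NOTCH3 UMIs (661 and 724 UMIs), and fibroblast-like cells held 30.3% and 22.0%. Epidermal stem-like cells had 290 and 595 NOTCH3 UMIs and differentiated keratinocyte-like cells 119 and 314. Both keratinocyte classes together thus held more than mural-like cells in the cryopreserved library.

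**Figure D1:**
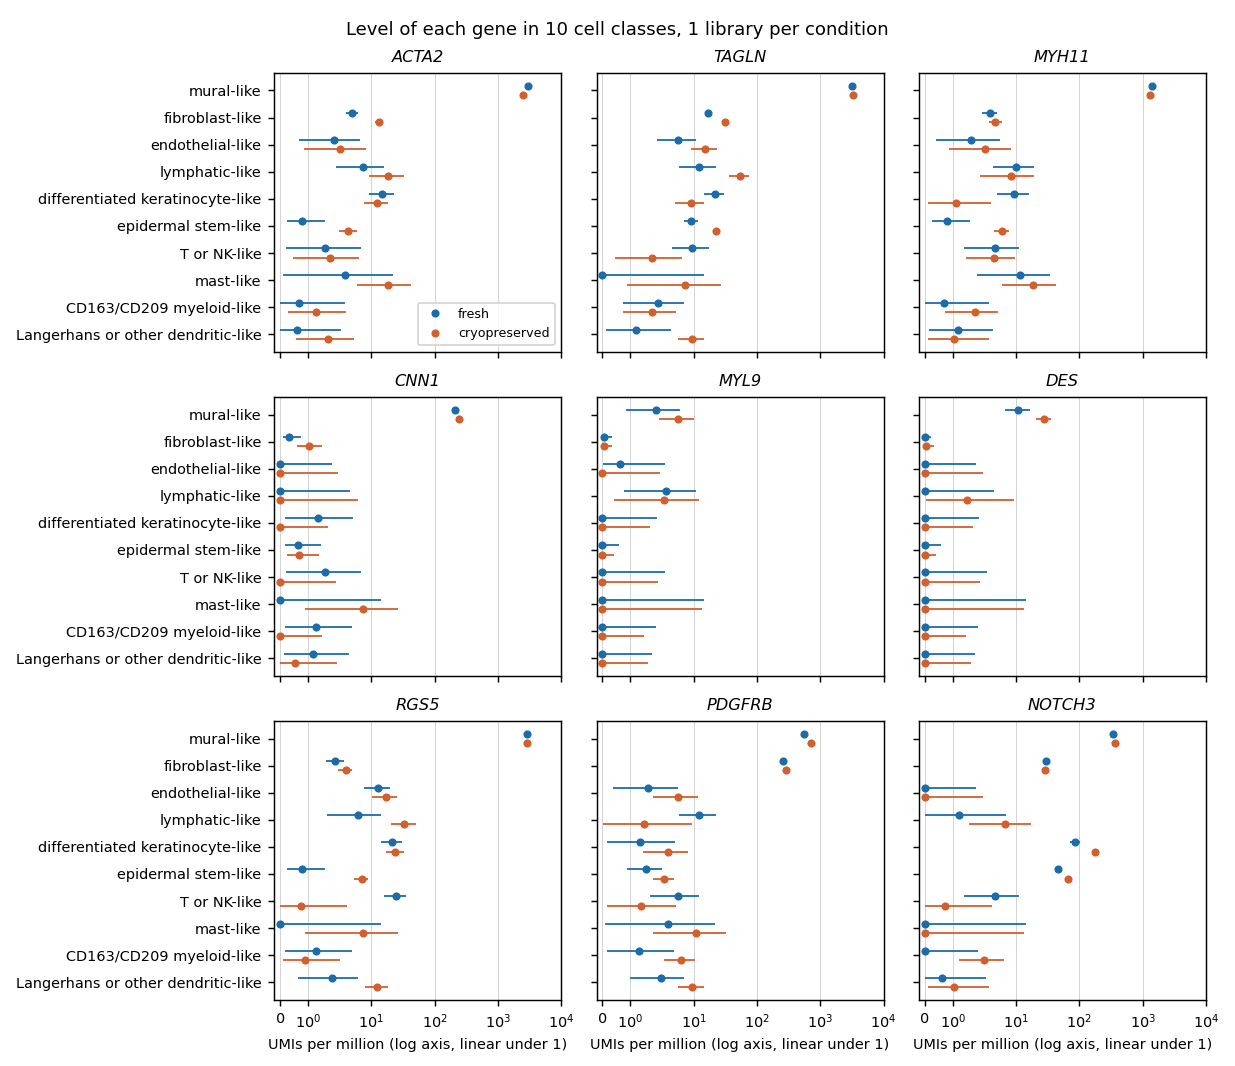
Level of each gene (CPM, log axis that is linear under 1) in 10 cell classes of the fresh (blue) and the cryopreserved (orange) library, with lines for exact 95% Poisson intervals. Mural-like cells stand highest in both libraries for 8 genes, PDGFRB has a second high class in fibroblast-like cells, and NOTCH3 has further levels in both keratinocyte classes and in fibroblast-like cells.

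Ordered by class, 8 of the 9 genes had their highest level in mural-like cells in both libraries, and for 7 of these 8 the mural-like interval lay above that of the class next in order in both libraries. For DES it did so in the cryopreserved library, while in the fresh one all other classes were at 0 and the mural-like interval, 6.72 to 16.6 CPM, overlapped that of the small mast-like class, which reached 14.3. MYL9 was the exception, with 3.71 CPM in fresh lymphatic-like cells on 3 UMIs. The classes next in order differed between the libraries for ACTA2 (differentiated keratinocyte-like at 15.0 CPM, mast-like at 18.4), TAGLN (differentiated keratinocyte-like at 21.4, lymphatic-like at 53.4), CNN1 (T or NK-like at 1.88, mast-like at 7.38, each on 2 UMIs) and RGS5 (T or NK-like at 24.5, lymphatic-like at 33.4). All 21 ACTA2 UMIs behind the 15.0 CPM came from 1 cell. Together, mural-like cells made up 6.0% and 5.29% of all UMIs and held 79.6% (fresh) and 74.2% (cryopreserved) of the UMIs of the 9 genes.

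The contrast of mural-like with fibroblast-like cells asked which genes separate these lineages. Among the 8 members with at least 50 UMIs in the compared classes, 7 were at least 4-fold higher in mural-like cells in both libraries, beside 5.52% of the 12233 genes compared. PDGFRB was the eighth, and at 2-fold all 8 were higher, beside 13.9% of genes. The members' median log2 ratio was 8.03 and 7.71, and that of all genes 0.09 and 0.11.

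RGS5 had the largest ratio among the members in both libraries, 1073-fold (793 to 1491) in fresh and 735-fold (575 to 956) in cryopreserved cells, which ranked 5 and 3 among the 12233 genes. ACTA2 was 596-fold higher (477 to 755) in fresh and 187-fold higher (163 to 216) in cryopreserved cells. The intervals for ACTA2 do not overlap, and its mural-like level was lower and its fibroblast-like level higher in the cryopreserved library. CNN1 had ratios of 648 and 235, MYH11 369 and 282, and TAGLN 185 and 107. DES was 56.3-fold higher in the fresh library with the 0 fibroblast-like UMIs set to a floor of 3, a value without an interval. In the cryopreserved library it was 453-fold higher against 1 UMI (interval 77.9 to 18210). NOTCH3 was 11.3-fold higher (10.0 to 12.7) and 13.03-fold higher (11.6 to 14.7). For PDGFRB the ratio was 2.17 (2.03 to 2.33) and 2.54 (2.39 to 2.70), rank 1924 and 1560. TMM scaling lowered all these log2 ratios by 0.31 and 0.34, and the count of members at 4-fold was as before. PDGFRB, with a log2 ratio of 1.12 in the fresh library before this scaling, then no longer passed 2-fold.

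The ratios of the sparse side rested on few cells. The 5 fibroblast-like cells with most ACTA2 UMIs held 52.6% (fresh) and 42.9% (cryopreserved) of the ACTA2 UMIs of that class, and without these cells the level was 2.39 and 7.65 CPM. In these 5 cells the naming markers of mural cells, none of them a member, summed to 2565 and 2373 CPM, against 1414 and 1454 in the remaining fibroblast-like cells. Without the 5 cells with most UMIs of the gene in each class, the mural-like over fibroblast-like log2 ratio was 10.16 instead of 9.22 for ACTA2 and 11.11 instead of 10.07 for RGS5 in the fresh library, and with all deposited barcodes it was 7.98 for ACTA2. Conversely, the 12 fibroblast markers summed to 3403 and 4797 CPM in mural-like and 126108 and 138542 CPM in fibroblast-like cells. The 11 endothelial markers found summed to 343 and 277 CPM in mural-like cells, with VWF at 9.82 and 0.51 and KDR at 6.72 and 0 CPM. The part of such cells in the levels of the members was not tested.

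Within the fibroblast-like class the members were unevenly spread. Cluster 18, with 58 and 73 cells led by COCH, TNN, ITGA8 and ACAN, had TAGLN at 175 and 179 CPM, with a UMI in 32.8% and 30.1% of its cells. ACTA2 in this cluster stood at 42.3 and 47.4 CPM but was found in 2 of 58 and 6 of 73 cells, while MYH11 had 1 UMI in each library and CNN1 had 0 and 2. TAGLN was thus the contractile gene that reached a sizeable share of the cells of cluster 18. Cluster 5, with 198 and 193 cells led by genes such as CCL19 and LEPR, had NOTCH3 at 127 CPM in both libraries, found in 58.6% and 48.7% of cells. PDGFRB in the same cluster stood at 477 and 525 CPM. RGS5 in cluster 5 was at 3.07 and 7.10 CPM, in 3 and 2 cells.

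Mural-like cells differed between their clusters, which were made without the 9 genes. Of the 8 members compared, CNN1 was at least 4-fold higher in cluster 8 than in cluster 12 in both libraries, beside 1.44% of 7164 genes, and DES was at least 4-fold lower, beside 1.48%. At 2-fold, 5 members were higher in cluster 8 (CNN1, ACTA2, TAGLN, MYH11 and RGS5), beside 4.97% of genes, and DES alone was lower, beside 5.29%. The members' median log2 ratio was 1.13 and 1.14, against 0.03 and 0.07 over all genes. The smooth muscle naming markers summed to 7257 and 6785 CPM in cluster 8 and 3992 and 3286 CPM in cluster 12, and those of pericytes, near equal, to 1794 and 2089 CPM against 2034 and 2104, with a median log2 ratio of 0.05 and 0.09. Fibroblast markers also moved with this split, at 2001 and 3396 CPM in cluster 8 and 5307 and 6211 CPM in cluster 12, and 2 of the 7 compared were at least 4-fold higher in cluster 12. Their part in the ratios was not tested.

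CNN1 stood at 320 against 56.1 CPM in fresh and 424 against 65.2 CPM in cryopreserved cells, a log2 ratio of 2.51 (2.07 to 2.99) and 2.70 (2.32 to 3.11). It was found in 71.3% and 58.1% of cells of cluster 8 and in 15.5% and 13.7% of cluster 12. MYH11 was at 2038 against 590 and 2098 against 560 CPM, a log2 ratio of 1.79 and 1.91, and passed 4-fold in both libraries when its 5 highest cells were left out (2.24 and 2.20). ACTA2 was at 3911 against 1737 and 3394 against 1589 CPM. TAGLN was at 4096 against 1790 and 4656 against 2035 CPM. The contractile genes thus ran higher in cluster 8 in each library, but cluster 12 was far from lacking them, with ACTA2 in 78.4% and 80.0% and TAGLN in 95.9% and 93.7% of its cells.

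RGS5 was also higher in cluster 8. It stood at 3740 against 1757 CPM in fresh and 4124 against 1645 CPM in cryopreserved cells, log2 ratios of 1.09 (1.003 to 1.18) and 1.33 (1.24 to 1.41). With the 9 genes allowed among the clustering features, these ratios were 0.43 and 0.57, in the same direction. NOTCH3 was at 423 against 230 and 488 against 257 CPM (log2 0.88 and 0.93). PDGFRB was at 535 against 592 and 691 against 744 CPM, and the intervals of its log2 ratio, -0.32 to 0.03 and -0.26 to 0.05, include 0. The median cell had 7373 and 4913 UMIs in cluster 8 and 8070 and 5094 in cluster 12, so that depth was close in each library.

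**Figure D2:**
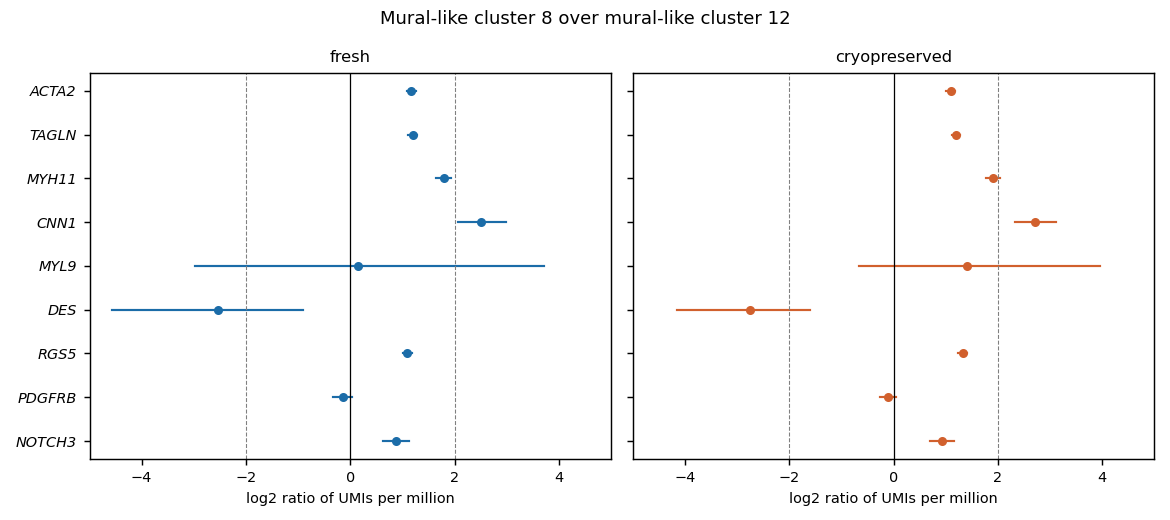
Log2 ratio of CPM in the mural-like cluster 8 over the mural-like cluster 12 for each gene, in the fresh (left) and the cryopreserved (right) library, with lines for exact 95% intervals and dashed lines at 4-fold. ACTA2, TAGLN, MYH11, CNN1, RGS5 and NOTCH3 lie to the right of 0 in both libraries, the intervals of PDGFRB and MYL9 include 0, and DES lies to the left.

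DES went the other way. It had 4 UMIs in cluster 8 and 17 in cluster 12 of the fresh library and 7 and 47 in the cryopreserved library, log2 ratios of -2.53 (-4.56 to -0.91) and -2.76 (-4.15 to -1.61). Leaving out the 5 cells with most DES gave -1.69 in the fresh library, and allowing the 9 genes in the clustering gave -1.77, so that the 4-fold difference of the fresh library rested on these choices. Cells with a DES UMI numbered 4 and 7 in cluster 8 and 12 and 24 in cluster 12. They were deeper than the other cells of cluster 12, with medians of 9992 against 7799 and 6936.5 against 4713 UMIs. Their ACTA2 level was 1411 against 1804 CPM in fresh and 2132 against 1470 CPM in cryopreserved cells, in opposite directions. 

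Single cells were compared at 1000 UMIs to ask how often the contractile marker ACTA2 and the pericyte marker RGS5 fall in the same cell. In cluster 8, both were found in 112 of 147 fresh cells (76.2%, interval 68.5 to 82.8%) and 155 of 198 cryopreserved cells (78.3%, 71.9 to 83.8%). In cluster 12, both were found in 30 of 97 (30.9%, 21.9 to 41.1%) and 45 of 174 (25.9%, 19.5 to 33.0%). Cells of cluster 12 with ACTA2 but no RGS5 made up 21.6% and 28.2%, those with RGS5 but no ACTA2 29.9% and 28.2%, and those with neither 17.5% and 17.8%. The share with neither in cluster 8 was 0.68% and 3.03%. A gene missed at 1000 UMIs may be present in the full cell. At full depth, cluster 12 had both genes in 66.0% and 66.9% of cells, ACTA2 alone in 12 and 23 cells, RGS5 alone in 15 and 26 and neither in 6 and 9, and cluster 8 had both in 94.0% and 95.5%.

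**Figure D3:**
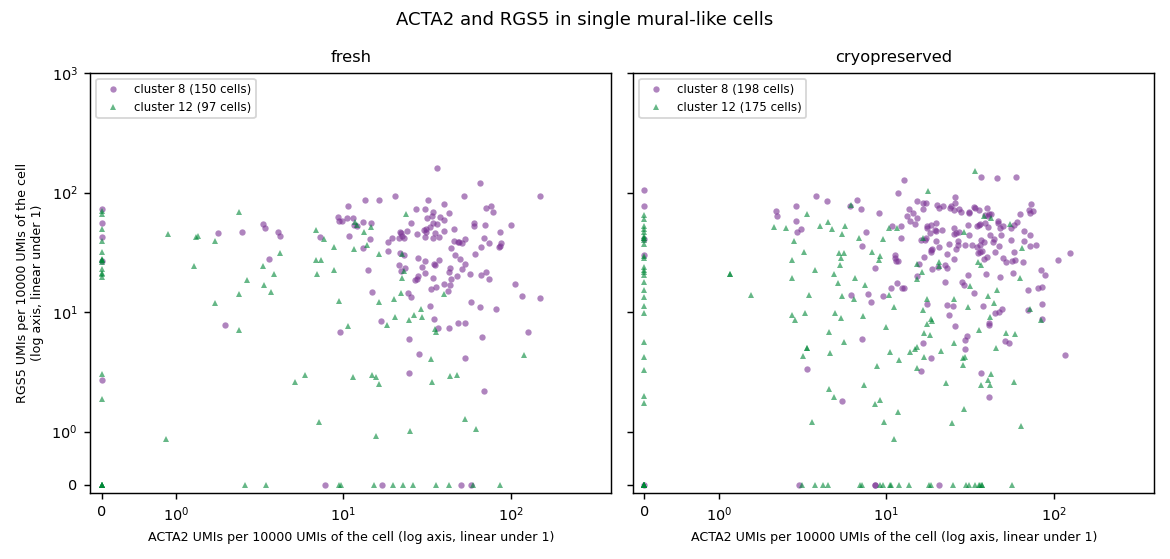
RGS5 against ACTA2 in each mural-like cell, both as UMIs per 10000 UMIs of the cell on log axes that are linear under 1, for cluster 8 (purple circles, 150 fresh and 198 cryopreserved cells) and cluster 12 (green triangles, 97 and 175 cells). Cells of cluster 8 gather where both genes are high, and cells of cluster 12 reach down both axes.

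Over single mural-like cells the contractile genes varied together. The values are UMIs per 10000 of the same cell, so all pairs share the cell's library and depth, and the coefficients are given as a description over 247 fresh and 373 cryopreserved cells. Spearman's rho for ACTA2 with TAGLN was 0.78 and 0.77, and 0.62 and 0.58 after thinning. The 6 pairs among ACTA2, TAGLN, MYH11 and CNN1 ranged from 0.61 to 0.78 with a median of 0.69 in fresh and from 0.54 to 0.77 with a median of 0.59 in cryopreserved cells. Within clusters, their medians were 0.44 in cluster 8 and 0.45 in cluster 12 of the fresh library and 0.44 in both of the cryopreserved library. After thinning, the median of these 6 pairs was 0.36 in both libraries over all mural-like cells. It was 0.22 and 0.21 within cluster 8 and 0.19 and 0.21 within cluster 12.

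RGS5 varied little with ACTA2. Its rho with ACTA2 was 0.03 and 0.13 over all mural-like cells, although both genes were higher in cluster 8. Within cluster 8 it was -0.16 and -0.09, and within cluster 12 -0.28 and -0.16. Over all mural-like cells the rho of RGS5 was 0.19 and 0.26 with MYH11 and 0.18 and 0.17 with TAGLN. With CNN1 it was -0.005 and 0.03, and with PDGFRB 0.25 and 0.17. Within each cluster the RGS5 pairs with MYH11, TAGLN and CNN1 were negative in both libraries before thinning. Thinned, RGS5 in cluster 8 of the fresh library had 0.04 with TAGLN and -0.02 with MYH11, and the rest of these pairs stayed negative. The lowest was RGS5 with CNN1 in cluster 8, at -0.38 and -0.35 before thinning and -0.18 and -0.27 after. RGS5 with PDGFRB in cluster 12 was 0.56 and 0.35, and 0.23 and 0.19 thinned. The 3 pairs among RGS5, PDGFRB and NOTCH3 had medians of 0.25 and 0.17, the highest being RGS5 with NOTCH3 at 0.29 and 0.41. The 12 pairs between the contractile genes and these 3 had medians of 0.09 and 0.13 and ran from -0.13 to 0.34 and from -0.20 to 0.28. The highest of them, NOTCH3 with MYH11 (0.34) and with ACTA2 (0.33) in fresh cells, were above the pairs among the 3. In cryopreserved cells, RGS5 with NOTCH3 was above all pairs across, so the order differed between the libraries. Thinned, NOTCH3 in fresh cells had a rho of 0.06 with MYH11, 0.01 with ACTA2 and 0.16 with RGS5. After thinning no pair across was above 0.14 and 0.16. The pairs among RGS5, PDGFRB and NOTCH3 then had medians of 0.16 and 0.14, so over all mural-like cells both kinds were too small to read in sparse counts. Within cluster 12 the medians were 0.30 and 0.25 for these 3 pairs and -0.12 and -0.10 for pairs across. Thinned, they were 0.17 and 0.07 against -0.10 and -0.09. Within cluster 8 they were 0.18 and 0.17 against 0.01 and -0.09, and thinned 0.17 and 0.07 against -0.01 and -0.04.

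**Figure D4:**
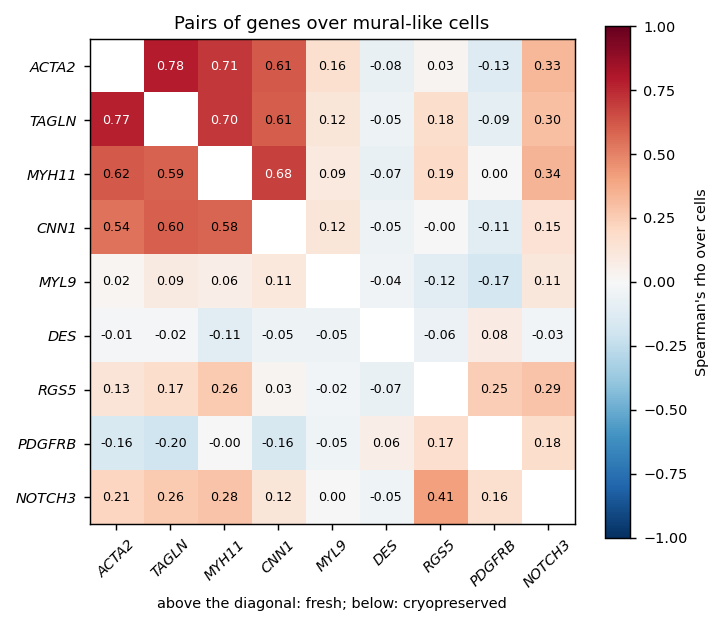
Spearman's rho over mural-like cells for each pair of genes, above the diagonal for 247 fresh and below it for 373 cryopreserved cells, from -1 (blue) to 1 (red). The block of ACTA2, TAGLN, MYH11 and CNN1 holds the high values in both libraries, and DES and MYL9, which few cells contain, stay near 0.

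The study compared cryopreserved with fresh cells by the correlation and edgeR of pseudo-bulk profiles, among other measures. Here the members were compared by another measure, the ratio of CPM within a class, without a test. In mural-like cells, 1 of the 8 members compared, DES, was past 2-fold either way, beside 2.22% of 7164 genes. DES stood at 10.9 CPM in fresh and 27.8 in cryopreserved cells, a log2 ratio of 1.36 (0.61 to 2.16) on 21 and 54 UMIs. PDGFRB had a log2 ratio of 0.36 (0.24 to 0.48), CNN1 0.24 (0.04 to 0.43), TAGLN 0.10 (0.05 to 0.16) and NOTCH3 0.13 (-0.03 to 0.28). MYH11 was at -0.10 (-0.17 to -0.02) and ACTA2 at -0.26 (-0.32 to -0.20). RGS5, on 5610 and 5613 UMIs, had a log2 ratio with the interval -0.06 to 0.05. For comparison, the median size of the log2 ratio over all genes was 0.24 in these cells, close to the sizes for ACTA2 and CNN1. PDGFRB, at rank 1119 of 7164 from the highest, differed by more. The median covers all genes with at least 50 UMIs, and ratios on few UMIs carry wider counting error than that of ACTA2. It thus cannot show whether the ACTA2 difference was typical of genes counted as well. The size of the ACTA2 ratio was larger than those of RGS5, TAGLN and MYH11, and smaller than those of PDGFRB and DES. Fibroblast markers in mural-like cells summed to 3403 CPM in fresh and 4797 in cryopreserved cells, with a median log2 ratio of 0.47 and 1 of 7 past 2-fold, and their part in the PDGFRB ratio was not tested. The share of cluster 8 among mural-like cells was 60.7% in fresh and 53.1% in cryopreserved cells. Within cluster 8, 0 of 7 members passed 2-fold (1.88% of genes), with ACTA2 at -0.20, CNN1 at 0.41 and PDGFRB at 0.37. Within cluster 12, 1 of 8 passed (2.99% of genes), which was DES at 1.23, and PDGFRB was at 0.33.

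In fibroblast-like cells, cluster 6 was set apart, since NTRK2, a smooth muscle naming marker, was among its 10 leading genes and no fibroblast marker was. In the remaining fibroblast-like cells 0 of 6 members compared passed 2-fold, beside 2.27% of genes. ACTA2 stood at 5.63 CPM on 76 UMIs in fresh and 9.92 CPM on 129 UMIs in cryopreserved cells, a log2 ratio of 0.82 (0.40 to 1.25). TAGLN was at 16.6 and 26.6 CPM, a log2 ratio of 0.68 (0.43 to 0.93). Without the 5 highest cells of each gene, these ratios were 1.07 and 1.13. RGS5 was at 2.07 and 3.46 CPM (0.74, interval 0.03 to 1.47), but at -0.59 with all deposited barcodes. PDGFRB was at 0.15 (0.08 to 0.21) and NOTCH3 at -0.01 (-0.21 to 0.18). The naming markers of smooth muscle summed to 844 and 729 CPM and those of pericytes to 575 and 730 CPM in all fibroblast-like cells, one list lower and the other higher in the cryopreserved library. Their part in the ACTA2 ratio was not tested. In cluster 6, with 127 and 246 cells, 2 of 4 members were past 2-fold, beside 2.83% of genes. These were ACTA2, with 2 UMIs in fresh and 88 in cryopreserved cells, of which 5 cells held 80.7%, and TAGLN, with 38 and 162 (log2 1.41).

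**Figure D5:**
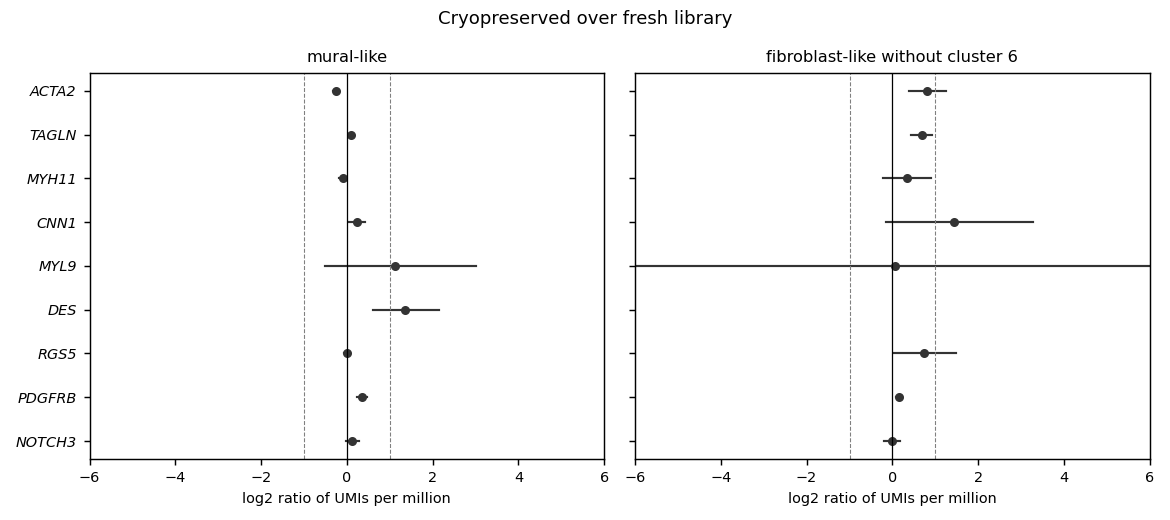
Log2 ratio of CPM in the cryopreserved over the fresh library for each gene in mural-like cells (left) and in fibroblast-like cells without cluster 6 (right), with lines for exact 95% intervals and dashed lines at 2-fold. Of the genes with at least 50 UMIs, DES alone, on 21 and 54 UMIs, lies past 2-fold in mural-like cells. ACTA2 and TAGLN lie to the right of 0 in fibroblast-like cells. MYL9 rests on 5 and 11 UMIs on the left and 1 and 1 on the right, and DES had no UMI on the right.

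NOTCH3 in keratinocytes was higher in the cryopreserved library in each of 5 clusters, a comparison made after the values were seen. In differentiated keratinocyte-like cells (cluster 13) it stood at 84.7 CPM on 119 UMIs in 86 fresh cells and 175 CPM on 314 UMIs in 157 cryopreserved cells, with a UMI in 73.3% and 79.6% of cells, and 10.7% and 14.4% after thinning. The log2 ratio was 1.05 (0.74 to 1.36), rank 92 of 6517 genes, of which 1.78% were at least 2-fold higher. Of the 2 members compared in that cluster, 1 passed. With other clustering and filter settings the ratio ran from 0.57 to 1.13, and was under 2-fold when the libraries were merged without integration, at either other resolution and with all barcodes. The epidermal stem-like clusters 9, 10 and 19 had log2 ratios of 0.80 (0.23 to 1.39), 0.78 (0.35 to 1.23) and 0.63 (-0.08 to 1.40). Cluster 2, which had SPRP, a marker of differentiated keratinocytes, among its 10 leading genes, stood at 56.0 and 71.2 CPM. In the same libraries NOTCH3 was at 342 and 373 CPM in mural-like cells. Median depth in cluster 13 was 17722 UMIs in fresh and 11299 in cryopreserved cells, and its part in the ratio was not tested.

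Among other genes, those with the most similar levels over the 10 classes of both libraries were found by Pearson's r of log2(CPM + 1) over 20 values, among 11691 genes. The values share classes and libraries and are not independent, so r is given as a description. For ACTA2 these were MYH11 (r = 0.954) and the unnamed genes ENSSSCG00000042713 and ENSSSCG00000037487. TAGLN was nearest to LMOD1 (0.944), HEY2 and CPE, MYH11 to ACTA2, ENSSSCG00000037487 and CNGA3, and CNN1 to MYOCD (0.963), ENSSSCG00000037487 and EEF1A2. RGS5 was nearest to TAGLN (0.926), LRRC10B and UNC5D. DES was nearest to CNGA3 (0.980), ENSSSCG00000041284 and LRRTM3, and MYL9 to SGIP1 (0.930), SHISAL1 and ENSSSCG00000017643, both on few UMIs. PDGFRB was nearest to BGN (0.956), PCDH18 and ENSSSCG00000017181, and NOTCH3 to NDRG4 (0.947), GAL3ST4 and VIPR2.

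Other genes of the same pathways were taken from lists, where higher and lower mean at least 4-fold in both libraries. The counts of every list between mural-like and fibroblast-like cells stand beside 5.52% of all genes higher and 5.53% lower. Of 31 genes of smooth muscle contraction and its actin cytoskeleton compared, 14 were at least 4-fold higher in mural-like than in fibroblast-like cells in both libraries and 0 were at least 4-fold lower, beside 5.52% and 5.53% of all genes, with a median log2 ratio of 1.69 and 1.87. The highest in mural-like cells were TPM1, a tropomyosin, at 1608 and 1604 CPM against 121 and 156 in fibroblast-like cells, the beta-actin gene ACTB (1238 and 1689 against 657 and 838), ADIRF (1347 and 1489 against 6.62 and 13.1) and PPP1R12A, the targeting subunit of myosin phosphatase (1316 and 1205 against 268 and 229). ACTB did not pass 4-fold. Of 16 genes around serum response factor, 5 were higher and 1 lower. MYOCD, its smooth muscle coactivator, stood at 361 and 214 CPM against 0.58 and 0.37, and MEF2C at 273 and 292 against 29.5 and 25.1. MRTFA, at 443 and 412 against 191 and 144, and KLF4, at 253 and 263 against 731 and 826, did not pass 4-fold. Between the mural-like clusters MYOCD, like CNN1, was higher in cluster 8, with 561 against 89.0 CPM in cluster 12 of the fresh and 371 against 54.8 CPM of the cryopreserved library.

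Around RGS5, 12 of 27 genes of contraction control by G proteins, calcium and cGMP were higher and 1 was lower, a list that shares PDE3A and TRPC6 with the naming markers. PRKG1, the cGMP-dependent kinase, was at 1902 and 1842 CPM in mural-like cells against 464 and 373, and RGS16, a relative of RGS5, at 1208 and 1505 against 74.1 and 73.0. ROCK2 was at 772 and 655 against 320 and 262, without passing 4-fold. AGTR1, an angiotensin receptor, was the 1 gene of 20 past 4-fold between the clusters, with 5.38 against 68.2 CPM in fresh and 6.15 against 63.1 in cryopreserved cells, higher in cluster 12. Over all 7164 genes, 1.48% were at least 4-fold higher in cluster 12 and 1.44% in cluster 8. A count of 1 in 20 is too small to set apart from these shares.

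Around PDGFRB, the ligand genes PDGFA, PDGFB and PDGFC were at least 4-fold higher and PDGFRA, PDGFRL and PDGFD at least 4-fold lower in mural-like than in fibroblast-like cells. PDGFA stood at 459 and 560 CPM against 2.57 and 3.93, and PDGFRA, the fibroblast PDGF receptor, at 2.58 and 4.12 against 548 and 442. PDGFRB was thus found in both lineages and PDGFRA was near 0 in mural-like cells. PDGFRA is also one of the fibroblast naming markers, so its difference between these classes follows in part from the naming. Around NOTCH3, 5 of 16 Notch genes compared were higher and 0 lower, among them the target genes HEYL (285 and 281 CPM against 25.2 and 22.4) and HEY2 (67.2 and 71.6 against 1.67 and 2.21). JAG1, a Notch ligand, stood at 317 and 298 against 145 and 143, without passing 4-fold. MAML2, a coactivator of Notch, was at 528 and 508 against 525 and 412, and the target HES1 was lower in mural-like cells without passing 4-fold, at 134 and 184 against 347 and 390. HEY2 was higher in cluster 8, at 107 against 13.4 and 128 against 14.5 CPM, as NOTCH3 was, while HEYL was at 217 against 377 and 207 against 356 CPM.

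Of 21 basement membrane and adhesion genes, 7 were higher and 3 lower, and COL4A2, a collagen of the vessel basement membrane, was at 1455 and 1575 CPM against 477 and 525. LAMC1, a laminin chain, was at 998 and 974 against 511 and 501, and COL18A1 at 699 and 723 against 35.9 and 49.0. COL4A2 and LAMC1 did not pass 4-fold. Of 9 myofibroblast genes, 1 was higher (ACTG2, an enteric smooth muscle actin, at 136 and 100 CPM) and 3 were lower, with POSTN at 11.4 and 19.6 CPM in mural-like against 2394 and 2513 in fibroblast-like cells. COL12A1 (297 and 313 against 929 and 744) and LOXL2 (239 and 256 against 431 and 405) did not pass 4-fold. Of 3 skeletal muscle genes compared, 0 were past 4-fold, and TNNT3 was the highest at 13.4 and 9.27 CPM. Between the libraries, 0 genes of these lists passed 2-fold in mural-like cells, beside 2.22% of 7164 genes. Those compared were 30 contraction, 13 serum response factor, 20 contraction control, 4 PDGF, 15 Notch, 18 basement membrane and 5 myofibroblast genes.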

How the data were processed

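UMI counts per gene and barcode were measured in 1 fresh and 1 cryopreserved library of pig skin cells. The authors mapped the reads with Cell Ranger 4.0.0 (STAR 2.5.1b) to Sscrofa11.1 with the Ensembl annotation and deposited the counts without normalization. Barcodes numbered 4379 and 4860, with 53271738 and 42217632 UMIs. Cells above 4500 genes, 30000 UMIs or 10% of UMIs on 13 mitochondrial genes were left out, as in the study's methods, leaving 32274985 and 36687009 UMIs. Doublets were gated out by light scatter before loading, which does not reach those formed in droplets, and leaving out the 6% of cells with the highest Scrublet scores was an alternative.

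Libraries were integrated and clustered with Seurat 5.3.0 in R 4.3.3 (anchors, 2000 features, 30 components, resolution 0.8), with the 9 genes removed beforehand. A class needed 3 markers found in 10% of the cells and raised 2-fold, none of them one of the 9 genes. A cluster entered comparisons between libraries unless its 10 leading genes by fold held more markers of another class. UMIs were summed per class and library (Python 3.11.15, scanpy 1.11.5, scipy 1.17.1) and divided by the class total. Ratios carry exact 95% intervals. Where a side had 0 UMIs, it was set to a floor of 3 counts and no interval is given. Genes with at least 50 UMIs in the compared groups were counted at 4-fold between classes and 2-fold between libraries. Cells under 1000 UMIs, 27 fresh and 32 cryopreserved, were left out of thinned shares. The scripts were tested on simulated counts. TMM factors (edgeR 4.0.16) and DESeq2 1.42.0 size factors were alternatives of scale, with no test. Promoters are the 250 bases before each RefSeq gene, matched by symbol for 8 of the 9 genes, and the other is not reported here.

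The genes named are the 9 members, for each the 3 genes with the highest r among genes of at least 200 UMIs, and up to 4 genes per pathway list with the highest level in mural-like cells. Other genes were named after their values were seen. The members, the markers and the lists (smooth muscle contraction, serum response factor, contraction control, PDGF, Notch, basement membrane, skeletal muscle and myofibroblast genes) were chosen with earlier results of these data known.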

Additional observations from a re-analysis of the deposited data

Results flagged for a closer look

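ACTA2 differed in direction between mural-like and fibroblast-like cells when the cryopreserved library was set against the fresh one. Its log2 ratio was -0.26 in mural-like cells, on 5784 fresh and 4847 cryopreserved UMIs, and 0.82 in fibroblast-like cells without cluster 6, on 76 and 129 UMIs. The intervals, -0.32 to -0.20 and 0.40 to 1.25, lie on opposite sides of 0. With 1 library per condition the difference was not tested. In these fibroblast-like cells the 5 highest cells held 41 of the fresh and 58 of the cryopreserved ACTA2 UMIs, and without the 5 highest cells of each library the fibroblast-like ratio was 1.07. Over all cells outside the mural-like class, ACTA2 stood at 3.99 CPM in fresh and 9.58 CPM in cryopreserved cells. Epidermal stem-like cells had 0.79 and 4.29 CPM and lymphatic-like cells 7.41 and 18.4 CPM, each from few cells. In epidermal stem-like cells the share with a UMI was 1.13% and 1.11%, and 5 cells held 86.8% of the cryopreserved UMIs. Counts in most other classes were too low to read a direction, so whether the rise was particular to fibroblast-like cells cannot be told. Of the named classes outside mural-like cells, differentiated keratinocyte-like cells alone were lower, at 15.0 and 12.3 CPM.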

How the results depend on the processing

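Between mural-like and fibroblast-like cells, the count of 7 members at least 4-fold higher was 7 or 8 under every alternative run, and all 143 recomputed ratios kept their direction and side of the threshold. The count with the highest level in mural-like cells was 8, or 9 without the 5 highest cells. The count past 4-fold between the mural-like clusters, 2, was 1 with the 9 genes allowed in clustering and 6 at 2-fold. Between libraries, the mural-like count of 1 was 2 with no minimum of UMIs, when MYL9 entered. The fibroblast-like count of 0 was 1 at resolution 0.4, 1 with no minimum and 2 without the 5 highest cells. The mural-like share of all member UMIs, 79.6% and 74.2%, was 69.2% and 69.9% with all deposited barcodes, 80.9% and 76.9% without the highest doublet scores, and 75.5% in the cryopreserved library without the 5 highest cells. Except for the minimum, the cause of these changes was not tested. Of the ratios of single genes, 101 of 106 between clusters, 75 of 81 between mural-like and 57 of 71 between fibroblast-like libraries kept their side of the threshold and their direction. For NOTCH3 in differentiated keratinocyte-like cells it was 3 of 7, alternatives chosen after seeing the data. The division of mural-like cells gave no value at resolution 0.4 and with all barcodes, where they formed 1 cluster. No paired analysis was possible because each condition has 1 library.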

Other observations

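Some high values of the members outside mural-like cells came from single cells. In the unnamed cluster 21, led by cell division genes such as CCNB1 and UBE2C, RGS5 stood at 262 CPM in the cryopreserved library, and all 38 UMIs came from 1 of 15 cells, while the 17 fresh cells had 0. In the epidermal stem-like cluster 9, RGS5 had 1 UMI in 104 fresh cells and 39 UMIs in 239 cryopreserved cells, of which 1 cell held 26. ACTA2 in the same cluster had 2 and 22 UMIs, the latter in 2 cells. MYH11 was at 1 and 25 UMIs there. The cells behind these values were few enough that the class levels of such genes moved with 1 or 2 barcodes.

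Among lymphatic-like cells of the cryopreserved library, TAGLN stood at 53.4 CPM, and 31 of its 32 UMIs lay in 5 cells. In these cells the mural naming markers summed to 1976 CPM, against 798 in the other lymphatic-like cells.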
